A study of Anopheles coluzzii and Anopheles merus with 32 samples.

Results

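AGAP002858 is the catalytic alpha subunit of the sodium/potassium ATPase, followed here as 1 row of the 11025 gene identifiers in a table of expression values. The row was chosen by its identifier. The deposited table lists identifiers without names, so the name comes with the identifier and could not be checked in the table. Its level was set out over all 8 groups of the study, which compared mRNA in 2 closely related malaria mosquitoes. Anopheles coluzzii is the stenohaline species of the pair, tolerant of a narrow range of salinity, and Anopheles merus is the euryhaline one. All larvae were reared in freshwater. Pools of 35 to 50 larvae aged 18 h or 66 h from hatching spent 6 h either in freshwater (FW) or in saltwater (SW), and 1 library was made from the whole bodies of each pool. The groups were An. coluzzii at 18 h in FW, An. coluzzii at 18 h in SW, An. merus at 18 h in FW, An. merus at 18 h in SW, and the same 4 at 66 h, with 4 libraries each and 32 in all. The labels do not give the salinity of the SW, and they do not tell whether pools of 1 group were raised apart. The p-values therefore reflect the spread among these libraries, part of which may be technical.

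The sodium/potassium ATPase splits ATP to carry sodium out of a cell and potassium in, against both gradients. The alpha subunit holds the ATP-splitting site and the ion path, and a smaller beta subunit is needed to bring it to the membrane. In mosquito larvae the pump is found in the rectum, the Malpighian tubules and the gut, where it drives the movement of salt, and it also runs in nerve and muscle. In anopheline larvae that tolerate salt, the place of the protein among the cells of the rectum is known to differ between fresh and saline water. A library of whole larvae averages all these tissues, and fewer cells of a type cannot be told apart from less RNA per cell.

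Values are reads relative to library size (CPM), scaled by the authors with trimmed means of M values (TMM). Each value was a whole multiple of the value of 1 read, which gave back the reads. AGAP002858 was deeply covered, with 9755 to 214238 reads per library from libraries of 3769859 to 16633623 reads. Counting error was at most 1.01% of its value, so the spread between replicates set the precision. That error covers counting only, since the reads carry no molecular identifiers.

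One library stood apart. In An. coluzzii at 18 h in FW the 4 libraries stood at 2555, 2522, 15426 and 2909 CPM for replicates 1 to 4. Replicate 3 was 5.8 times the mean of the other 3, and it was 3.14 times the highest of all other libraries of the series. It gave 214238 of its 10715120 reads to AGAP002858, or 1.999% of them, against 0.23% to 0.478% in the other 31 libraries. The authors' scaling factors were recovered to within 5.1e-15 with this value in place. With the value set to the median of the other 3 libraries they differed by up to 0.00084. The high value was therefore in the counts from which the scaling was made.

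The library was not far from its replicates over most genes. By the gap to the nearest replicate relative to the group's range, 37 of 10505 genes lay far above the rest of the group in this library, against a median of 77.5 over the 32 libraries. By size, 76 genes stood at least 4-fold above the median of its replicates, which only An. coluzzii 18 h SW replicate 1 exceeded, at 97. An excess on the log2 scale at least as large as that of AGAP002858 was held by 22 genes, itself included. The source of the high value was not tested. The limma results below are given with all 32 libraries and again with 31, a choice made after the value was seen.

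**Figure D1:**
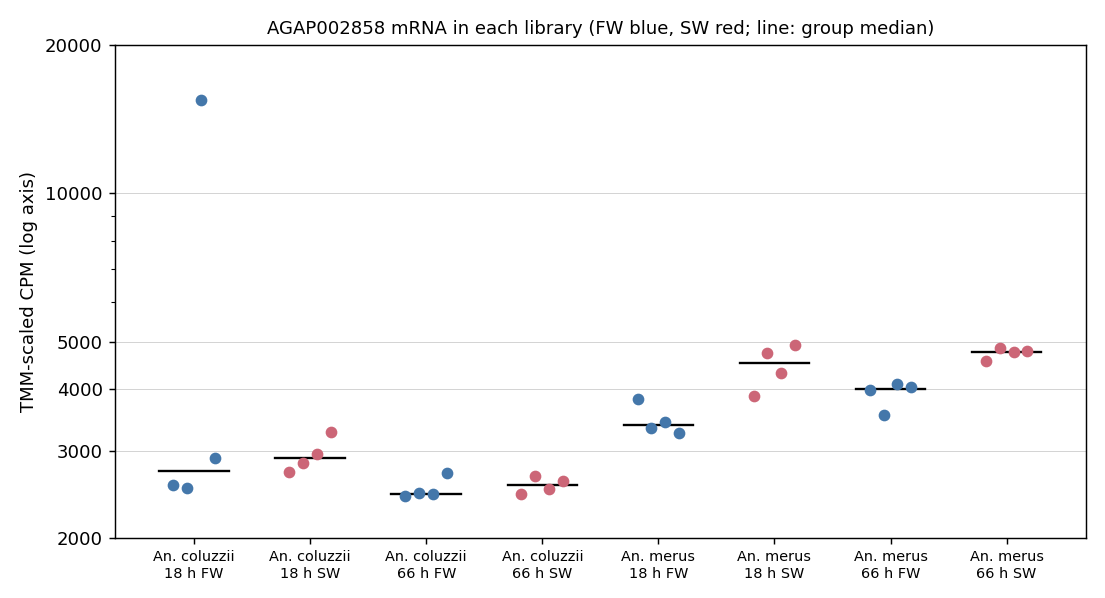
TMM-scaled CPM of AGAP002858 (log axis) in each of the 32 libraries by species, age and water, with FW in blue, SW in red and a line at each group's median. An. coluzzii 18 h FW replicate 3 lies at 15426 CPM, and the other 31 libraries lie between 2433 and 4910.5 CPM.

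Within groups the residual standard deviation of AGAP002858 was 0.459 on the log2 scale over 32 libraries, and 92.7% of the genes tested had a smaller one. Over 31 libraries it was 0.0986, and only 1.86% of the genes tested had a smaller one. That library was left out for the value of this gene, while other genes kept their own outlying libraries, so the smaller spread, and the p-values over 31 libraries that rest on it, are favoured by the choice. The coefficient of variation within the 7 other groups lay between 2.53% (An. merus, 66 h, SW) and 10.4% (An. merus, 18 h, SW). In TMM-scaled CPM the medians of all An. coluzzii groups lay below those of all An. merus groups. In rising order of group medians came An. coluzzii at 66 h in FW, at 66 h in SW, at 18 h in FW and at 18 h in SW, and then An. merus at 18 h in FW, at 66 h in FW, at 18 h in SW and at 66 h in SW. The medians ran from 2458 to 4771 CPM. The libraries of every pair of neighbours in this order overlapped, with the high library or without it, and without it the second and the third group changed places. As shares of the reads, with no TMM factor, the order was not by species, since An. coluzzii at 18 h, at 0.349% in FW without the high library and 0.372% in SW, stood above An. merus at 66 h, at 0.322% and 0.328%.

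The SW and FW groups were compared first, within each species and age. In An. merus the TMM-scaled CPM of AGAP002858 was higher after 6 h of SW at both ages, by 1.29-fold at 18 h and 1.21-fold at 66 h. In An. coluzzii the groups overlapped at both ages. With the spread of all 32 libraries none of these 4 differences passed the test, and with 31 libraries both An. merus differences did. Scaled to library size with no TMM factor, neither An. merus difference passed with 31 libraries.

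In An. merus at 18 h the FW libraries stood at 3826, 3338, 3437 and 3255 CPM and the SW libraries at 3877, 4743, 4318 and 4910.5 CPM. Each SW library lay above each FW library, though the lowest of them, replicate 1, exceeded FW replicate 1 only narrowly. The log2 fold change was 0.36 ± 0.32 (SE, limma, adjusted p = 0.356) over 32 libraries and 0.36 ± 0.073 (adjusted p = 0.00015) over 31. On the 8 libraries of the comparison alone the adjusted p was 0.00281. The exact two-sided permutation test gave p = 0.0286, the smallest that 4 against 4 libraries allow, and 0.0572 adjusted over 12 comparisons of 2 groups. In this comparison 51.7% of all genes tested were called with 32 libraries and 51.6% with 31, and the libraries of the groups did not overlap for 50.3%. The change of AGAP002858 was larger in size than that of 47.2% of genes, so it lay near the middle.

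In An. merus at 66 h the FW libraries stood at 3978, 3548, 4102 and 4037 CPM and the SW libraries at 4576, 4859.5, 4765 and 4777 CPM. The groups were apart, and relative to their mean the SW libraries were the closest together of any group. The log2 fold change was 0.28 ± 0.32 (limma, adjusted p = 0.473) over 32 libraries and 0.28 ± 0.073 (adjusted p = 0.00188) over 31, and on the 8 libraries alone the adjusted p was 0.0091. The exact permutation p was again 0.0286. Of all genes, 57.2% were called with 32 libraries and 57.1% with 31, the groups did not overlap for 49.9%, and 32.5% changed less than AGAP002858.

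The rise in An. merus was relative to the bulk of the transcripts as the authors' scaling sets it. The share of all reads that fell on AGAP002858 was 0.41 ± 0.029% in FW and 0.452 ± 0.033% in SW at 18 h (mean ± SD, n = 4), and 0.322 ± 0.022% and 0.328 ± 0.016% at 66 h. With libraries brought to a common sum the log2 differences were 0.14 and 0.03, and the libraries overlapped at both ages. The exact permutation p was 0.171 at 18 h and 0.686 at 66 h, and limma gave adjusted p of 0.741 and 0.944 over 32 libraries and 0.0694 and 0.726 over 31. Under that scaling the median of all genes stood at -0.21 and -0.26, so AGAP002858 still lay above it. Under quantile normalisation the differences were 0.06 at 18 h and, with the sign turned, -0.10 at 66 h. Group means of the TMM factor fell from 1.18 to 1.01 at 18 h and from 0.822 to 0.692 at 66 h between FW and SW, and their part in the result is the gap between these scalings.

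**Figure D2:**
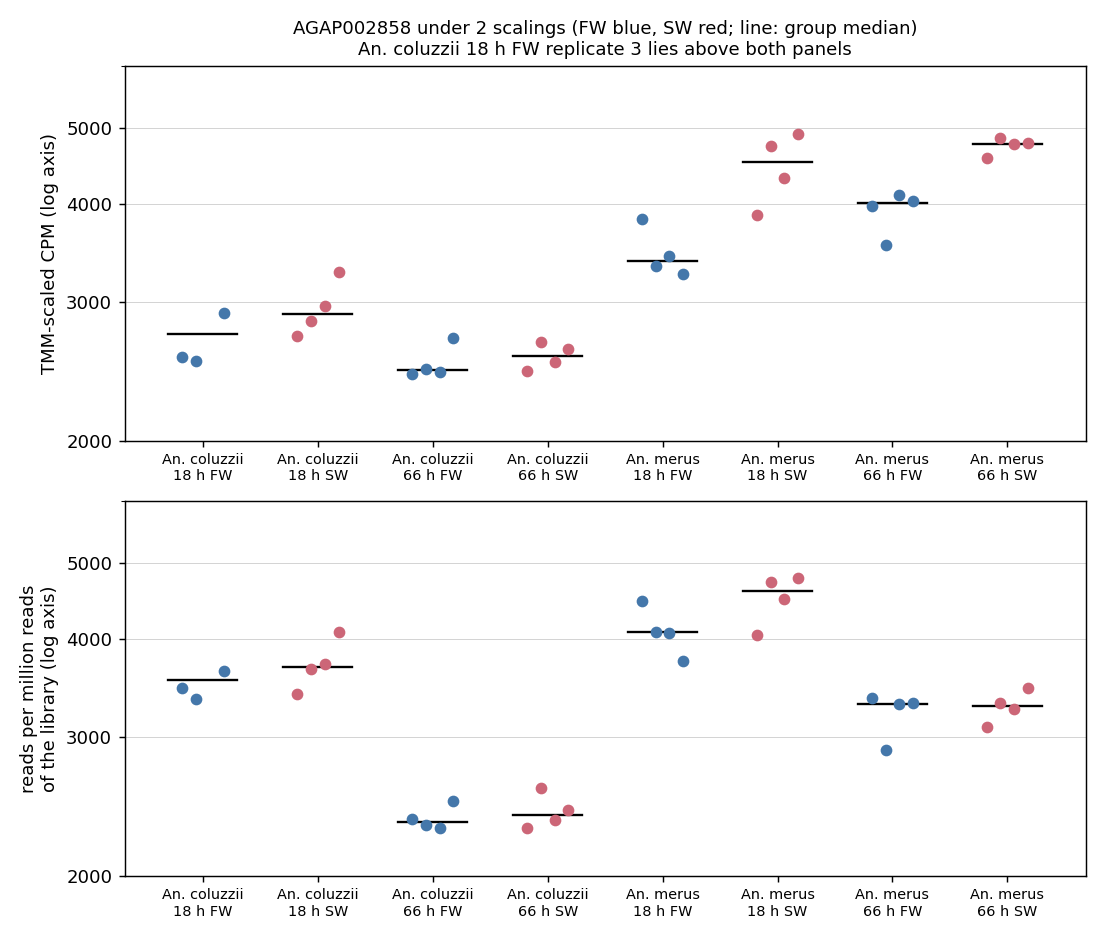
AGAP002858 in TMM-scaled CPM (upper panel) and as its reads scaled to library size with no TMM factor (lower panel), both on log axes, with FW in blue, SW in red and a line at each group's median. An. coluzzii 18 h FW replicate 3 lies above both panels and is counted in its group's line. The SW libraries of An. merus at 66 h lie above the FW libraries in the upper panel, from 4576 CPM up, and among them in the lower panel.

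In An. coluzzii at 18 h the SW libraries stood at 2716, 2838, 2963 and 3278 CPM, against 2555, 2522, 15426 and 2909 CPM in FW. The direction rested on 1 library. With all 4 FW libraries the log2 difference was -0.49 ± 0.32 (limma, adjusted p = 0.334), and without FW replicate 3 it was 0.15 ± 0.079 (adjusted p = 0.22). The 95% interval without it ran from a 0.99-fold to a 1.24-fold level, so a rise of the size seen in An. merus at 66 h lay inside it. The exact permutation p was 0.943 with all libraries and 0.171 without replicate 3. In this comparison 8.25% of all genes were called with 32 libraries and 9.65% with 31.

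In An. coluzzii at 66 h the FW libraries stood at 2433, 2469, 2448 and 2701 CPM and the SW libraries at 2450, 2669, 2515 and 2613 CPM. The values were interleaved. The log2 difference was 0.03 ± 0.32 over 32 libraries and 0.03 ± 0.073 over 31 (limma, adjusted p = 0.978 and 0.893), with a 95% interval from 0.92-fold to 1.13-fold over 31. Here 2.24% of genes were called with 32 libraries and 2.1% with 31. The call in An. merus and its absence in An. coluzzii did not by themselves make a difference between the species.

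The species were compared through the interaction term for species and water. Its value at 18 h was 0.85 ± 0.45 on the log2 scale over 32 libraries (limma, adjusted p = 0.191) and 0.21 ± 0.11 over 31 (adjusted p = 0.169), where 21% and 18.7% of genes were called. At 66 h it was 0.25 ± 0.45 (adjusted p = 0.708) and 0.25 ± 0.1 (adjusted p = 0.0643), where 32.1% and 31.8% of genes were called. With libraries brought to a common sum it was 0.68 at 18 h over 32 libraries (adjusted p = 0.288) and 0.05 over 31 (adjusted p = 0.76), and -0.00011 at 66 h in both. No interaction of species and water passed in these fits. edgeR on the recovered reads put the 18 h interaction at 1.35 with an adjusted p of 0.0488, and at 0.22 with an adjusted p of 0.156 without the high library.

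The interaction of age and water did not pass either. In An. merus the SW response at 66 h less that at 18 h was -0.08 ± 0.45 over 32 libraries and -0.08 ± 0.1 over 31 (limma, adjusted p = 0.933 and 0.655), where 13.3% and 12.9% of genes were called. In An. coluzzii it was 0.52 ± 0.45 and -0.12 ± 0.11 (adjusted p = 0.791 and 0.743), so its sign also turned on the high library, and 0.0762% and 0.0666% of genes were called.

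**Figure D3:**
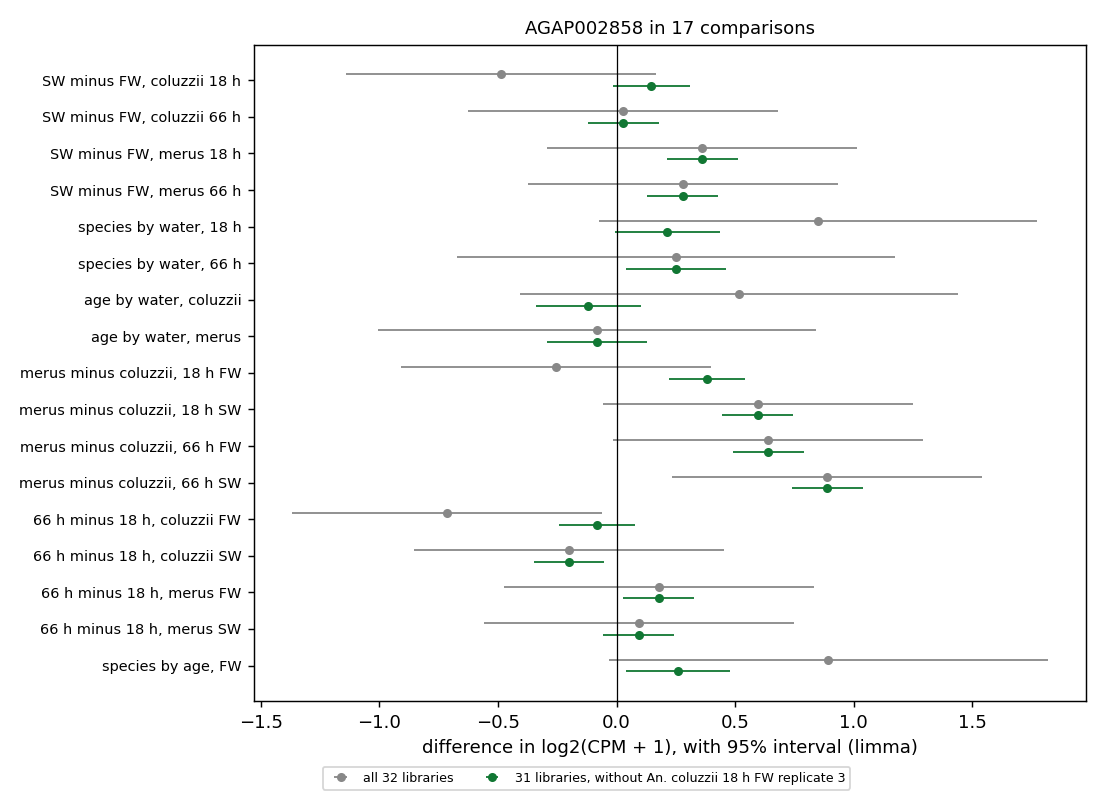
Difference in log2(CPM + 1) of AGAP002858 with its 95% interval in the 17 comparisons, from limma with all 32 libraries (grey) and with 31 (green). Leaving out 1 library narrowed every interval and turned the sign of 3 differences, those of species at 18 h in FW, of age by water in An. coluzzii, and of water in An. coluzzii at 18 h.

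In TMM-scaled CPM the largest of the 12 differences between 2 groups was one between the species. With libraries brought to a common sum the largest was one of age in An. coluzzii, at -1.19 in FW over 32 libraries and -0.62 in SW over 31. In TMM-scaled CPM AGAP002858 was higher in An. merus at 66 h in SW by 1.85-fold, at 4744 ± 120 against 2562 ± 98 CPM (mean ± SD, n = 4). This log2 difference of 0.89 ± 0.32 was the only one of the 17 to pass with all 32 libraries (limma, adjusted p = 0.016), and over 31 libraries it was 0.89 ± 0.073 (adjusted p = 2.19e-11). The libraries were far apart, with the lowest of An. merus at 4576 CPM and the highest of An. coluzzii at 2669 CPM. Here 67.3% of genes were called with 32 libraries and 67.2% with 31, the libraries did not overlap for 62.1%, and 69.5% of genes differed less. At 66 h in FW the level was 1.56-fold higher in An. merus, at 3917 ± 251 against 2513 ± 127 CPM. That log2 difference of 0.64 had an adjusted p of 0.0955 over 32 libraries and 3.31e-08 over 31, where 51% and 50.9% of genes were called. The libraries did not overlap, as for 43.9% of genes.

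At 18 h in SW the level was 1.51-fold higher in An. merus, at 4462 ± 463 against 2949 ± 241 CPM, with adjusted p of 0.109 over 32 libraries and 6.17e-08 over 31. There 60.3% and 60.1% of genes were called, and the libraries did not overlap for 50.7%, this gene among them. At 18 h in FW An. merus stood at 3464 ± 253 CPM. An. coluzzii stood at 5853 ± 6380 CPM over 4 libraries and at 2662 ± 214 CPM over the 3 without replicate 3. The log2 difference, An. merus minus An. coluzzii, was -0.25 ± 0.32 (adjusted p = 0.544) and 0.38 ± 0.079 (adjusted p = 0.00026) respectively, where 46.8% and 43% of genes were called. Over 31 libraries all 4 species differences passed and had 1 sign. Over the same 31 libraries brought to a common sum they did so too in limma, with a highest adjusted p of 0.0087. The differences were 0.23, 0.28, 0.44 and 0.44 for 18 h FW, 18 h SW, 66 h FW and 66 h SW. The exact permutation p there was 0.0571 at 18 h and 0.0286 at 66 h, in both waters. Adjusted over 12 comparisons these were 0.0857 and 0.0572, and at 18 h in SW the libraries of the species overlapped. With all 32 libraries none passed under that scaling. Of 10505 genes, 4859, 6343, 5046 and 7229 were called there for 18 h FW, 18 h SW, 66 h FW and 66 h SW. Both species were counted under 1 set of identifiers, so a difference in how readily reads of each species align to the gene cannot be told apart from a difference in level.

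Between the ages the direction depended on the scaling in An. merus, and in An. coluzzii the level was lower at 66 h under each scaling tried. In TMM-scaled CPM the level in An. coluzzii in SW was 2562 ± 98 at 66 h against 2949 ± 241 at 18 h, a log2 difference of -0.20 (limma, adjusted p = 0.611 over 32 libraries and 0.0206 over 31), where 57.2% of genes were called in both fits and 47.7%, with AGAP002858, showed no overlap. In An. merus in FW it was 3917 ± 251 against 3464 ± 253 CPM, a log2 difference of 0.18 (adjusted p = 0.67 and 0.0435), where 50.8% and 50.7% of genes were called. Here the libraries overlapped and the exact permutation p was 0.0571. edgeR without the high library gave an adjusted p of 0.0502, so the call over 31 libraries was narrow. With libraries brought to a common sum the An. merus difference turned to -0.35. In An. merus in SW the difference was 0.09 (adjusted p = 0.812 and 0.268), turning to -0.46, and in An. coluzzii in FW it was -0.72 with all libraries and -0.08 without replicate 3 (adjusted p = 0.0558 and 0.393). In these comparisons 62.3% and 62.1%, and 58.6% and 56.2%, of genes were called.

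The age differences under the common-sum scaling were therefore read against the median of all genes, which moved with age. As a share of the reads, AGAP002858 went from 0.372 ± 0.028% at 18 h to 0.242 ± 0.013% at 66 h in An. coluzzii in SW. Over 31 libraries the common-sum difference was negative and passed in both species and waters, with a highest adjusted p of 3.67e-05 (limma), and over 32 it passed only in An. coluzzii in FW (adjusted p = 0.00164). Most genes did the like. Over 32 libraries under that scaling, 7669 and 7102 of 10505 genes were called in An. coluzzii FW and SW, and 7246 and 7244 in An. merus FW and SW. Of the called genes 21.6%, 22.4%, 15.1% and 16.2% were higher at 66 h, in that order. Over 32 libraries the median of all genes moved by -0.45, -0.37, -0.46 and -0.50 under that scaling in An. coluzzii FW, An. coluzzii SW, An. merus FW and An. merus SW. The median for An. coluzzii FW thus includes the high library. Without the high library AGAP002858 moved by -0.56, -0.62, -0.35 and -0.46 in the same order, and with it by -1.19 in An. coluzzii FW. Against these medians AGAP002858 lay lower in An. coluzzii and higher in An. merus, narrowly so in An. merus SW (-0.46 against -0.50). The interaction of species and age in FW was 0.89 ± 0.45 over 32 libraries and 0.26 ± 0.11 over 31 (limma, adjusted p = 0.284 and 0.163), and 5.36% and 6.32% of genes were called.

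The rows whose pattern was most like that of AGAP002858 were ranked by Pearson r of log2(CPM + 1) among the rows averaging 5 CPM or more. These correlations describe libraries that share groups, depth and scaling. Over 32 libraries the highest r were 0.609 for AGAP009693, 0.588 for AGAP003789 and AGAP009061, 0.585 for AGAP002927 and 0.582 for AGAP011422. In the high library AGAP009693 stood at 39.8 CPM against 29.2 to 35.8 CPM in its replicates, and AGAP003789 at 39.8 CPM against 30.7 to 33.8 CPM. The other 3 rows lay within the range of the replicates there. The lowest r were -0.618 for AGAP006391, -0.615 for AGAP000172 and -0.61 for AGAP001865.

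Over 31 libraries the 5 highest were other rows, with 0 shared between the lists. AGAP007608 and AGAP000099 reached 0.951, AGAP002360 0.949, AGAP006083 0.947 and AGAP000209 0.946. Their swings were wider than that of AGAP002858. AGAP007608 stood in An. coluzzii at 26.6 to 34 CPM over the 4 group means and in An. merus at 44.5 and 52.6 CPM in FW and 77.5 and 76.6 CPM in SW, at 18 h and 66 h. AGAP002360 stood at 0.175 to 2.14 CPM in An. coluzzii, and in An. merus at 53.1 and 190.1 CPM in FW and 241 and 724 CPM in SW. It reached the mean of 5 CPM needed for the ranking only through An. merus. Its wide swing thus starts from values near the floor in An. coluzzii. The most opposite rows were AGAP001057 at -0.953, AGAP005738 at -0.951 and AGAP000496 at -0.95. AGAP000496 lay below 5 CPM in every An. merus group mean and was ranked through An. coluzzii alone. AGAP001057 stood at 37.5 to 42.2 CPM in An. coluzzii and at 2.35 to 11.8 CPM in An. merus. The rows are not named in the sources used here, so nothing is said of what they encode.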

How the data were processed

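Whole larvae were sequenced as 32 libraries in 8 groups of 4, read from the sample titles. Per the labels' protocols, DNase-treated total RNA went through polyA selection and the TruSeq RNA v2 kit, which does not mark strand, so reads of genes that overlap on either strand may be mixed. The deposited signal is CPM scaled by TMM, per the file headers and the values. The submitters' processing notes list Trimmomatic, Bowtie2, TopHat2, HTSeq and edgeR, with no role or version. The build, the annotation and the rule behind the filtered table are not given in the sources used here.

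Dividing by the value of 1 read gave whole reads for 100% of values within 0.01 reads. The plan had assumed plain CPM, and its test was kept for this signal. The 10505 genes averaging 1 CPM or more were fitted as log2(CPM + 1) with limma 3.58.1 in R 4.3.3, with 8 group means, the trend and robust options and 24 residual degrees of freedom. All tests were two-sided. P-values were adjusted by Benjamini-Hochberg over all genes within each of 17 comparisons, and an adjusted p below 0.05 is called. Each fold change refers to log2(CPM + 1). Exact permutation tests of mean log2 values covered 12 comparisons of 2 groups. edgeR 4.0.16 and DESeq2 1.42.0 were run on the recovered reads as alternatives. The model was tested on simulated counts. Figures were drawn with matplotlib 3.10.9.

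The gene and the comparisons were chosen with earlier results of these data known. Besides AGAP002858 the rule named the 5 rows with the highest and the 3 with the lowest correlation with it, and leaving out the high library was added after its value was seen. Of 11025 identifiers, 0 were found in the gene table available here, so the planned lists of other pump subunits, ion transporters and tissue markers matched no gene, and markers that could check the whole-larva label were not examined. Protein and promoter sequences were not used here.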

Additional observations from a re-analysis of the deposited data

Results flagged for a closer look

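Replicate 3 of An. coluzzii at 18 h in FW, at 15426 CPM, was far from the other 3 libraries of its group. Its gap to the next library took 0.97 of the group's range, above Dixon's critical value for 4 libraries. In An. coluzzii at 66 h in FW replicate 4, at 2701.3 CPM, was also far from the others, which lay between 2433 and 2469 CPM, and its gap took 0.866 of a narrow range. Of the 8 groups, 2 were therefore marked, where about 1 in 20 is marked by chance alone. The cause of neither was tested.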

How the results depend on the processing

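Most of what changed rested on An. coluzzii 18 h FW replicate 3 or on the scaling. Values are log2 differences, and no cause was tested. Leaving out 1 library at a time gave, for SW minus FW, -0.72 to 0.15 in An. coluzzii at 18 h, 0.31 to 0.43 and 0.23 to 0.30 in An. merus at 18 h and 66 h, and for An. merus minus An. coluzzii, -0.49 to 0.38 at 18 h FW, 0.55 to 0.66 at 18 h SW and 0.62 to 0.69 at 66 h FW. For age by water in An. coluzzii it gave -0.12 to 0.75, and for 66 h minus 18 h, -0.95 to -0.0815 and -0.24 to -0.15 in An. coluzzii FW and SW and 0.15 to 0.23 in An. merus FW. On the libraries of each comparison alone, 6 of the 17 passed: 0.36 and 0.28 for SW in An. merus, 0.59, 0.64 and 0.89 for the species at 18 h SW, 66 h FW and 66 h SW, and -0.20 for age in An. coluzzii SW. A call was common in such fits. For SW in An. merus, 5976 of the 10505 genes tested were called at 18 h and 5899 at 66 h.

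With libraries brought to a common sum, the species difference at 66 h SW lost its call at 0.44 (adjusted p = 0.218), as with quantile normalisation at 0.27 (0.539). Age in An. coluzzii FW then passed at -1.19 and -1.27, and age turned in An. merus to -0.35 and -0.40 in FW and to -0.46 and -0.56 in SW. SW in An. merus at 66 h turned to -0.10 under quantile normalisation, and species by water at 66 h to -0.00011 and -0.14. Age in An. coluzzii FW also passed without trend and robust options at -0.72 (0.0468), and under edgeR at -1.23, as did species by water at 18 h at 1.35. Without An. coluzzii 18 h FW replicates 1 and 2, which leaves the high library 1 of 2 in its group, species by water at 18 h passed at 1.55, the species at 18 h FW at -0.95, age in An. coluzzii FW at -1.42 and species by age at 1.59.

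Chosen after seeing the data, edgeR without the high library gave 0.15 for SW in An. coluzzii at 18 h, 0.36 and 0.28 in An. merus, -0.12 for age by water in An. coluzzii, 0.37, 0.59 and 0.63 for the species at 18 h FW, 18 h SW and 66 h FW, and -0.21 for age in An. coluzzii SW. Common-sum scaling without it gave 0.0902 for SW in An. coluzzii at 18 h, -0.0611 for age by water there, 0.23, 0.28 and 0.44 for the same species differences, -0.56 and -0.62 for age in An. coluzzii FW and SW, and -0.35 and -0.46 in An. merus FW and SW. DESeq2 gave AGAP002858 no p in any of the 17 comparisons, so it adds no call. Pseudocounts of 0.25 and 4 and the filters changed no call.

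Over all genes, the number called under SW in An. coluzzii at 18 h was 867, and 6 on its own libraries, 18 without FW replicates 1 and 2, and 135 to 1729 with 1 library left out. At 66 h it was 235, and 110 to 183 with 1 of its libraries left out. No paired analysis was possible because the labels number the libraries 1 to 32 and give no replicate number that groups share. Depth was no limit for this gene.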
